A study of Aedes aegypti with 48 samples.

Results

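The comparison is of wild-type (WT) females of the yellow fever mosquito Aedes aegypti at ZT13 (7 PM) with WT females at ZT9 (3 PM), and its members are the 6 libraries labelled WT at ZT13 and the 6 labelled WT at ZT9, 12 of the 48 libraries in the series. ZT, or zeitgeber time, counts the hours from the start of the light phase, so that ZT9 was the last afternoon sample and ZT13 fell in the first hour after the 12 h of light had ended. The mosquitoes were of the Liverpool strain, reared at 27 °C in 12 h of light and 12 h of dark with 1-h transitions at dawn and dusk, offered 10% sucrose, with blood meals of sheep blood given to adult females in rearing. Each library was made from poly-A RNA of a pool of 10 whole females taken 5 days after emergence. No treatment was given, and the 36 other libraries come from WT at ZT1 and ZT5 and from a line in which the clock gene Cyc (cycle) was knocked out (KO), sampled at the same 4 times. Where KO is set beside WT below, its ZT9 and ZT13 libraries differ from those of WT by the Cyc mutation as the labels give it.

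The insect clock is a feedback loop of transcription. CYCLE and CLOCK form a pair of transcription factors that switch on their own repressors, and in flies the mRNA of repressors such as period and timeless rises toward dusk and early night. Aedes aegypti is active by day, with a peak of activity early in the day and another toward its end, so the step from afternoon to first darkness is the part of the day in which light, behaviour and the clock all change. Whole-body RNA averages all tissues, and for every result below fewer cells of a type and less RNA per cell cannot be told apart.

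The total of reads counted on genes lay between 24037067 and 29580968 at ZT9 (median 26418708) and between 15233447 and 27017019 at ZT13 (median 20480101.5). The share of a library's total that aligned to more than 1 place was 29.6% to 44.8% at ZT9 and 31.0% to 50.7% at ZT13. The library labelled WT ZT9 replicate 2 held the same count as the library labelled KO ZT13 replicate 1 for each of 19804 gene identifiers, so 1 library carries both labels, and the main counts are given also without it. The same holds for the list counts, where the count without it is given if it differs. On the first principal component of the 500 most variable genes, which held 19.6% of their variance, the ZT13 libraries scored 2.97 to 8.55 and the ZT9 libraries -25.5 to 2.76, without overlap (exact two-sided permutation test over 924 splits, p = 0.00216, the smallest that 6 against 6 can give). WT ZT9 replicate 3 scored -25.5 and the other ZT9 libraries -6.27 to 2.76, with replicate 2 the nearest to ZT13. Levels are given in CPM, the count of a gene relative to all reads counted on genes in its library and scaled with TMM factors to 1 scale over all libraries.

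Between ZT9 and ZT13 the transcripts of 670 of 11608 genes tested changed (5.77%), 423 upward (3.64%) and 247 downward (2.13%), by edgeR's quasi-likelihood test at a Benjamini-Hochberg adjusted p below 0.05. Most of these changes were small. Their median absolute log2 fold change was 0.36, 513 of the 670 stayed below 1.5-fold, and 44 passed 2-fold (0.379% of genes tested), 29 of them upward and 15 downward. The median log2 fold change over all genes tested was -0.0047. Without ZT9 replicate 2, 594 of 11641 genes were called (5.1%), 385 upward (3.31%) and 209 downward (1.8%), and 534 of the 670 genes were called in the same direction in both fits. Without ZT9 replicate 4 the count rose to 1012, and without ZT13 replicate 5 it was 455. The split by direction rested on the scaling: 63.1% of the calls were upward with TMM factors, and 39.7% when libraries were scaled by their totals alone, which moved the fold changes by a median of -0.049 on the log2 scale.

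**Figure D1:**
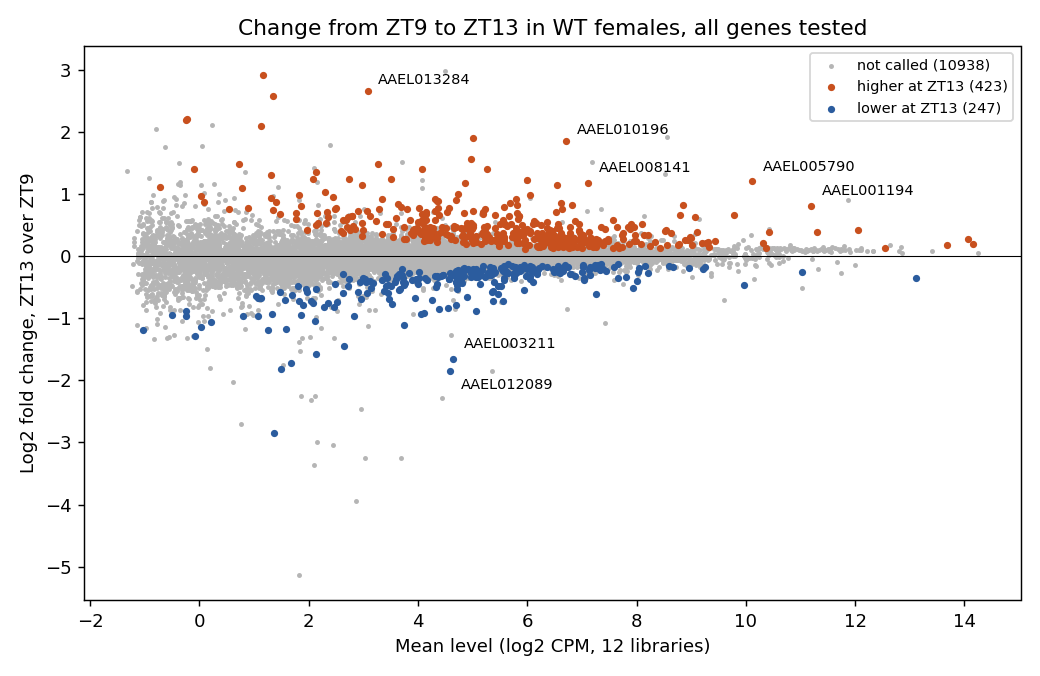
Each point is 1 of the 11608 genes tested, with its mean level over the 12 libraries (log2 CPM) on the x axis and its log2 fold change of ZT13 over ZT9 on the y axis. The 423 genes called higher are orange, the 247 called lower are blue, and most of both lie close to 0 while 44 pass 1 or -1, the 2-fold lines.

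Circadian rhythm genes had the highest median of the 19 lists described here. The list holds 10 genes that the study's term tables give for the KEGG pathway "circadian rhythm - fly", and all 10 passed the filter on low counts. Against 3.64% of all genes tested, 5 of the 10 rose and none fell, with a median log2 fold change of 0.25. The tables hold only genes that the study had called between KO and WT in these same libraries. This list, like those below, is therefore not independent evidence of a direction. Nor are the shares called in the lists like for like with those of all genes, which were not chosen in this way.

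AAEL008141, which the tables annotate as a DNA-binding transcription factor of this pathway, moved most. Its level was 66.2 to 96.6 CPM (median 81.2) in the ZT9 libraries and 177 to 192 CPM (median 186) in the ZT13 libraries, a log2 fold change of 1.18 ± 0.08 (SE; adjusted p = 6.64e-07). The groups lay far apart, and every ZT13 library was above every ZT9 library. In WT its mean had been 83.2 CPM at ZT1 and 36.6 CPM at ZT5, so its level was already climbing by ZT9 and was at its highest of the 4 times at ZT13.

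Cyc itself (AAEL002049), the partner of CLOCK and the gene mutated in the KO line, measured 27.5 to 33.4 CPM (median 31.1) at ZT9 and 36.0 to 45.2 CPM (median 39.0) at ZT13 (log2 fold change 0.39 ± 0.06, adjusted p = 0.00189). The groups did not overlap, yet both evening levels were under the WT means of 70.8 CPM at ZT1 and 67.4 CPM at ZT5. The change at dusk was thus an upturn from the lowest of the 4 group means.

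AAEL022593, annotated with protein dimerization and activation of transcription by RNA polymerase II, measured 3.55 to 5.68 CPM (median 4.92) at ZT9 and 5.84 to 9.29 CPM (median 7.03) at ZT13 (log2 fold change 0.58 ± 0.14, adjusted p = 0.0196). The lowest ZT13 library stood just above the highest ZT9 library. AAEL005255, a DNA-binding transcription factor by its annotation, measured 196 to 258 CPM (median 211) at ZT9 and 263 to 292 CPM (median 268) at ZT13 (log2 fold change 0.34 ± 0.06, adjusted p = 0.00349). Here too the groups stayed apart, although ZT9 replicate 4, at 258 CPM, lay close to the ZT13 libraries. AAEL019461, for which the tables give the circadian pathway only, measured 84.7 to 132 CPM (median 103) at ZT9 and 117 to 163 CPM (median 132) at ZT13 (log2 fold change 0.40 ± 0.10, adjusted p = 0.0301). Its groups overlapped, and its call was lost in 7 of the 12 fits that left out 1 library.

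The 5 other members did not pass the test. The kinase AAEL005238, which the tables also place in the Wnt and mTOR pathways, came nearest, with 152 to 176 CPM at ZT9 and 169 to 194 CPM at ZT13 (log2 fold change 0.15 ± 0.05, adjusted p = 0.0787). AAEL011371, another DNA-binding transcription factor, had a log2 fold change of 0.09 ± 0.07 (adjusted p = 0.599), and the RNA-binding AAEL007805 one of -0.12 ± 0.07 (adjusted p = 0.396). The protein phosphatase AAEL018126 (log2 fold change -0.00 ± 0.07) and AAEL019753, which the tables also place in the Hedgehog and Hippo pathways (0.01 ± 0.04), had adjusted p of 0.998 and 0.943. Within the list, 4 of the 5 members annotated as regulators of transcription were called, as was AAEL019461, which has no such annotation. The kinase and the phosphatase were not called. Of all genes tested, 5.77% were called in either direction. So few members, from a list that is itself a selection, cannot tell these functions apart.

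**Figure D2:**
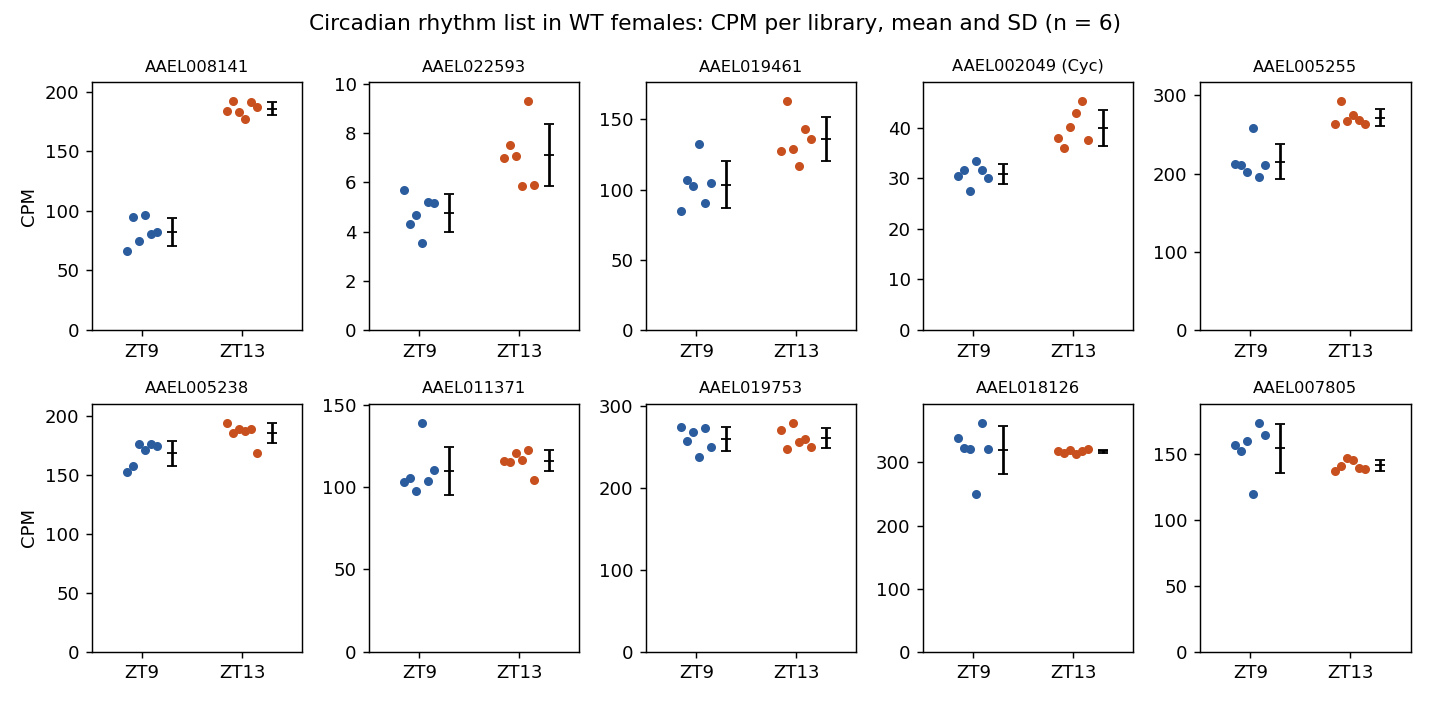
Each panel gives 1 of the 10 circadian rhythm genes, with CPM on the y axis, each of the 6 ZT9 libraries (blue) and 6 ZT13 libraries (orange) as a point, and the mean and SD of each group as a black bar. AAEL008141 moves from 66.2 to 96.6 CPM up to 177 to 192 CPM, while the panels of the lower row show groups that overlap.

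The genes of the largest rise came from several other functions. They are the 12 of largest log2 fold change among genes called with and without ZT9 replicate 2, whose mean log2 CPM reached 1, and with groups that do not overlap. Of all genes tested, 441 had groups that did not overlap (3.80%), and 340 genes met all of these conditions, 214 upward and 126 downward. Low levels at ZT9 made some of the folds large.

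AAEL013284, placed in the pathway of neuroactive ligand-receptor interaction, measured 1.08 to 5.14 CPM (median 1.90) at ZT9 and 9.01 to 20.8 CPM (median 14.2) at ZT13 (log2 fold change 2.66 ± 0.31, adjusted p = 0.000175). AAEL026458, without an annotation in the tables, measured 0.169 to 1.07 CPM (median 0.526) at ZT9 and 1.10 to 9.18 CPM (median 2.04) at ZT13 (log2 fold change 2.91 ± 0.58, adjusted p = 0.00814). The first gene was clearly separated in every library, whereas the second had a ZT9 and a ZT13 library almost at the same level and a wide spread at ZT13.

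AAEL013611, of the pathway of ubiquinone and other terpenoid-quinone synthesis, measured 14.4 to 25.1 CPM (median 20.8) at ZT9 and 42.3 to 62.9 CPM (median 54.4) at ZT13 (log2 fold change 1.40 ± 0.12, adjusted p = 7.07e-06). AAEL003434, a glycosyl hydrolase of starch and sucrose metabolism by its annotation, measured 29.9 to 47.9 CPM (median 36.1) at ZT9 and 78.2 to 92.4 CPM (median 88.0) at ZT13 (log2 fold change 1.22 ± 0.09, adjusted p = 2.33e-06). Both had groups that were wide apart for their spread, and both were at their highest WT mean at ZT13. AAEL005790, without an annotation in the tables, measured 532 to 831 CPM (median 602) at ZT9 and 1283 to 1718 CPM (median 1509) at ZT13 (log2 fold change 1.20 ± 0.11, adjusted p = 2.42e-05). Among the remaining genes of this group, AAEL005533, of the pathway of ECM-receptor interaction, measured 3.68 to 6.95 CPM at ZT9 and 11.2 to 16.9 CPM at ZT13 (log2 fold change 1.48 ± 0.14, adjusted p = 2.42e-05).

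AAEL024607 and AAEL014964, both without an annotation, rose by 1.36 and 1.23 on the log2 scale. AAEL014964 was an exception in its course over the day: its ZT13 libraries, at 6.91 to 13.2 CPM, were below its WT mean of 20.1 CPM at ZT1, so that its evening rise followed a fall through the light phase. Its ZT9 libraries measured 2.98 to 4.58 CPM. The other members of the 12 are AAEL008141, described above, and 3 serine endopeptidases.

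Serine endopeptidases, the class of protein-cutting enzymes that includes the trypsins of the mosquito gut and the proteases of insect immune cascades, had calls in the upward direction alone. Of the 58 genes the tables hold for this activity, all were tested, 13 rose (22.4%, against 3.64% of all genes) and none fell, with a median log2 fold change of 0.18 and a range from -0.92 to 2.09. Without ZT9 replicate 2 the count was again 13, and with ZT9 replicates 2 and 3 both left out it was 8. The tables annotate these members by their activity and not by tissue.

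AAEL010196 measured 14.4 to 80.4 CPM (median 45.5) at ZT9 and 96.3 to 208 CPM (median 162) at ZT13 (log2 fold change 1.85 ± 0.34, adjusted p = 0.00466). AAEL007432 measured 10.7 to 19.7 CPM (median 14.8) at ZT9 and 26.99 to 75.5 CPM (median 40.3) at ZT13 (log2 fold change 1.55 ± 0.22, adjusted p = 0.000804). AAEL001693 measured 12.5 to 21.98 CPM (median 17.7) at ZT9 and 26.8 to 47.7 CPM (median 40.8) at ZT13 (log2 fold change 1.17 ± 0.16, adjusted p = 0.000512). All 3 had separate groups, and AAEL010196 spread most among the libraries of each time. AAEL010202, with 0.108 to 2.28 CPM at ZT9 and 1.31 to 6.80 CPM at ZT13, had the largest fold of the list (log2 fold change 2.09 ± 0.54, adjusted p = 0.0340), but its groups overlapped, its adjusted p was 0.0614 without ZT9 replicate 2, and its call was lost in 9 of the 12 fits that left out 1 library. The other 9 called members had log2 fold changes from 0.20 (AAEL000028) to 1.02 (AAEL002360).

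The called genes of ribosome biogenesis were all lower at ZT13. Genes of this pathway encode the enzymes and assembly factors that process ribosomal RNA in the nucleolus. Of 40 genes held from the pathway, 39 were tested, 13 fell (33.3%, against 2.13% of all genes) and none rose, with a median log2 fold change of -0.11. Over the 39 the range was -0.36 to 0.16, and 10 had positive values. The 13 that fell had log2 fold changes from -0.36 to -0.21. Without ZT9 replicate 2, 9 were called, also all downward, and over all fits that left out 1 library the count ran from 9 to 19, the highest without ZT9 replicate 4.

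AAEL003514, annotated with pseudouridine synthesis, measured 196 to 233 CPM (median 222) at ZT9 and 159 to 186 CPM (median 169) at ZT13 (log2 fold change -0.36 ± 0.05, adjusted p = 0.000539). AAEL010248, an rRNA-processing methyltransferase by its annotation, measured 114 to 140 CPM (median 126) at ZT9 and 92.5 to 108 CPM (median 102) at ZT13 (log2 fold change -0.32 ± 0.05, adjusted p = 0.00255). AAEL017113, of the nucleolus and pseudouridine synthesis, measured 109 to 126 CPM (median 118) at ZT9 and 87.5 to 108 CPM (median 95.4) at ZT13 (log2 fold change -0.28 ± 0.05, adjusted p = 0.00462). In these 3 genes no library crossed between groups, so that even these small changes were larger than the spread of the replicates. AAEL009308, of the small-subunit processome, which cuts the precursor of the small ribosomal RNA, had overlapping groups of 23.8 to 27.9 CPM at ZT9 and 18.7 to 24.3 CPM at ZT13 (log2 fold change -0.29 ± 0.06, adjusted p = 0.0152). The structural proteins of the ribosome did not follow: of 40 held and tested, 0 were called, with a median of 0.10 and a range from -0.18 to 0.19.

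Fatty acid synthesis genes split. Of 19 held and tested from the process, 5 rose (26.3%, against 3.64% of all genes) and 2 fell (10.5%, against 2.13%), and without ZT9 replicate 2 the counts were 4 and 1. The median of the list was -0.08, so that the list's middle lay on the other side of 0 from most of its calls. The 5 that rose included the ones with the largest changes. AAEL001194, annotated with fatty acid synthase activity, the enzyme that builds long-chain fatty acids, measured 1343 to 1953 CPM (median 1650) at ZT9 and 2583 to 3248 CPM (median 2862) at ZT13 (log2 fold change 0.81 ± 0.10, adjusted p = 0.000342). AAEL026069, annotated with fatty acid synthesis and acyl-CoA metabolism, measured 565 to 823 CPM (median 634) at ZT9 and 887 to 1178 CPM (median 1083) at ZT13 (log2 fold change 0.67 ± 0.09, adjusted p = 0.000540). Both were separated in every library. AAEL000188, a fatty acid elongase by its annotation, and AAEL003203, of the synthesis of unsaturated fatty acids, rose by 0.70 and 0.38 on the log2 scale with overlapping groups. The pair that fell, AAEL002228 and AAEL008160, had log2 fold changes of -0.26 and -0.24. With ZT9 replicate 3 or ZT13 replicate 1, 2 or 5 left out, 4 members of the list were called in place of 7.

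Of 14 genes held from the 41 of the term for glycolysis and gluconeogenesis, 3 rose (21.4%, against 3.64% of all genes) and none fell, and the median was 0.05. The tables place each of these 3 in other pathways of metabolism as well. AAEL020382, annotated with acetyl-CoA metabolism and a ligase activity, measured 64.1 to 96.2 CPM (median 77.0) at ZT9 and 119 to 188 CPM (median 131) at ZT13 (log2 fold change 0.81 ± 0.11, adjusted p = 0.000649). The other 2, AAEL011756 and AAEL012162, both oxidoreductases that act on aldehydes, had log2 fold changes of 0.49 and 0.51, and the call of AAEL012162 was lost in 8 of the 12 fits that left out 1 library. The single called member of 9 sugar transporters (11.1%, against 2.13% of all genes lower), AAEL016967, fell by 0.42 on the log2 scale (24.8 to 34.0 CPM at ZT9, 19.4 to 23.3 CPM at ZT13, adjusted p = 0.00626). Of 28 genes of oxidative phosphorylation, 23 had negative log2 fold changes, the median was -0.07, and the 2 that passed the test (7.14%, against 3.64% of all genes higher), AAEL003831 and AAEL011203, had positive ones of 0.46 and 0.49. The call of AAEL011203 was lost in 9 of the 12 fits that left out 1 library. The tables annotate AAEL011203 also with sterol metabolism and iron-sulfur cluster binding.

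Heme-binding genes, a class that includes the cytochrome P450 monooxygenases, had 6 members that rose (11.3%, against 3.64% of all genes) and 2 that fell (3.77%, against 2.13%) among 53 tested of 54 held, with a median of 0.04 and a range from -0.67 to 0.75. Without ZT9 replicate 2, 6 rose and 1 fell. The 4 largest of the called rises were all of genes annotated as monooxygenases, but the monooxygenases among all 53 tested were not counted. AAEL014019 measured 13.7 to 17.4 CPM (median 15.4) at ZT9 and 20.5 to 29.5 CPM (median 24.7) at ZT13 (log2 fold change 0.67 ± 0.09, adjusted p = 0.000355). AAEL002638, AAEL008889 and AAEL007816 rose by 0.58, 0.46 and 0.44 on the log2 scale, the first 2 with separate groups.

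**Figure D3:**
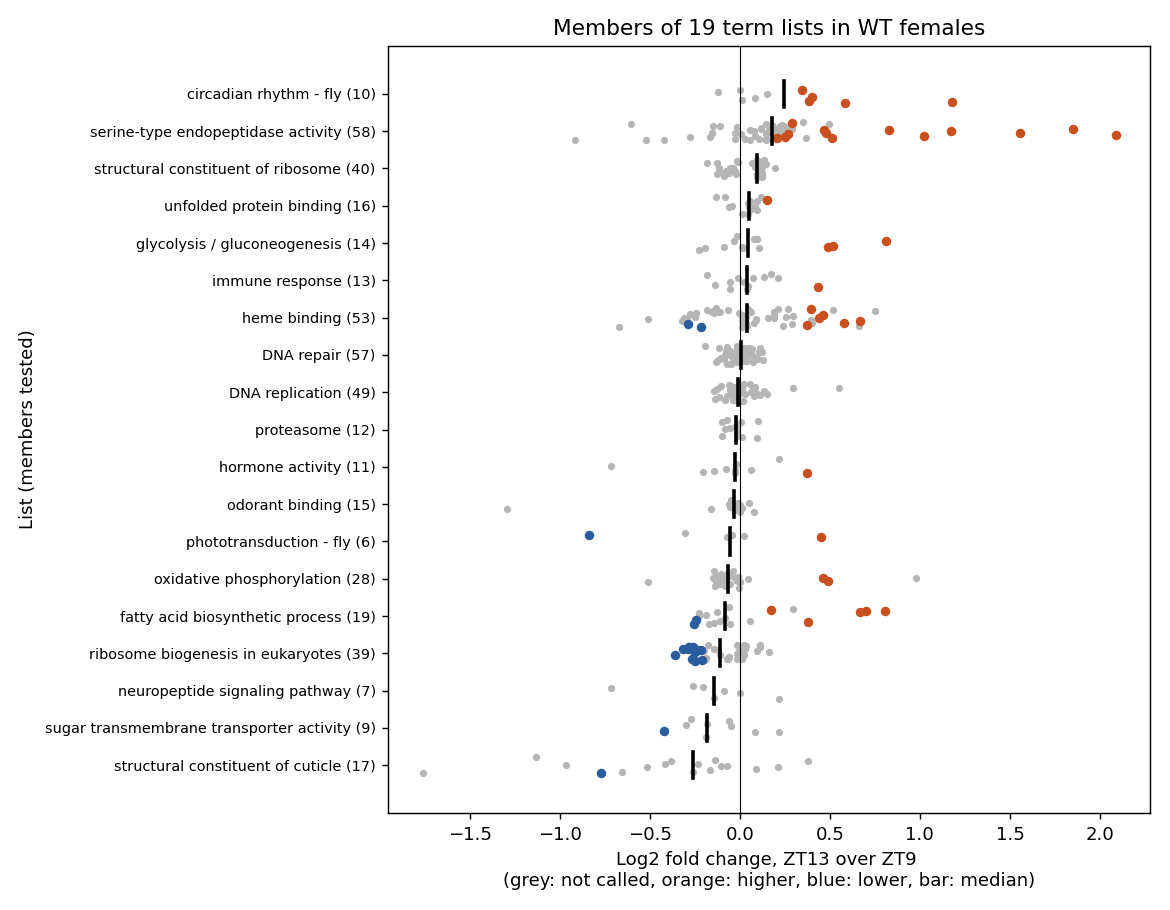
Each row is 1 of the 19 term lists with the number of members tested, each point is a member at its log2 fold change of ZT13 over ZT9, and the black bar is the list's median. Orange points (called higher) gather in the serine-type endopeptidase row and blue points (called lower) in the ribosome biogenesis row, and the rows of DNA repair, DNA replication and proteasome hold grey points only.

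Of the 12 genes of the largest fall, chosen by the same conditions, 9 have no annotation in the tables. The other members are AAEL003211, AAEL005437 and AAEL022132. AAEL003211, a beta-carotene dioxygenase, a kind of enzyme that in flies cleaves carotenoids to supply the chromophore of visual pigments, measured 30.8 to 48.6 CPM (median 34.2) at ZT9 and 9.24 to 14.5 CPM (median 11.1) at ZT13 (log2 fold change -1.65 ± 0.13, adjusted p = 3.54e-06). AAEL005437, a transient receptor potential channel, one of the cation channels of sensory cells, measured 6.59 to 11.1 CPM (median 8.78) at ZT9 and 2.23 to 3.76 CPM (median 3.23) at ZT13 (log2 fold change -1.45 ± 0.15, adjusted p = 4.60e-05). Both genes had groups well apart, and both had higher WT means at ZT1 and ZT5 than at ZT13.

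AAEL012089, without an annotation in the tables, was the fall with the lowest p. It measured 30.1 to 44.1 CPM (median 36.3) at ZT9 and 8.39 to 11.6 CPM (median 9.83) at ZT13 (log2 fold change -1.85 ± 0.11, adjusted p = 1.89e-07), after WT means of 35.4 CPM at ZT1 and 51.4 CPM at ZT5. AAEL020003 measured 7.42 to 10.6 CPM (median 8.64) at ZT9 and 4.12 to 4.96 CPM (median 4.56) at ZT13 (log2 fold change -0.97 ± 0.10, adjusted p = 3.70e-05). This gene had a different day: its WT means at ZT1 and ZT5 were 2.49 and 4.69 CPM, so that ZT9 was its highest of the 4 times. AAEL006537 also had its lowest WT mean at ZT1 (1.83 CPM), and fell from 3.69 to 6.15 CPM at ZT9 to 1.90 to 2.50 CPM at ZT13.

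AAEL026093, without an annotation, measured 1.79 to 11.4 CPM (median 2.50) at ZT9 and 0.904 to 1.31 CPM (median 1.10) at ZT13 (log2 fold change -1.81 ± 0.44, adjusted p = 0.0238), with the 11.4 CPM in ZT9 replicate 3, without which its log2 fold change was -1.11. AAEL022132, annotated with lipase activity, measured 1.81 to 6.69 CPM (median 2.37) at ZT9 and 0.997 to 1.72 CPM (median 1.25) at ZT13 (log2 fold change -1.18 ± 0.32, adjusted p = 0.0438), and its highest value belonged to ZT9 replicate 2, without which its log2 fold change was -0.76. Its call was lost in 8 of the 12 fits that left out 1 library, and that of AAEL026093 in 4. In both genes 1 ZT9 library carried part of the size of the fall. AAEL017139, AAEL017293, AAEL021195, AAEL013148 and AAEL012486 had log2 fold changes from -1.17 to -0.94.

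**Figure D4:**
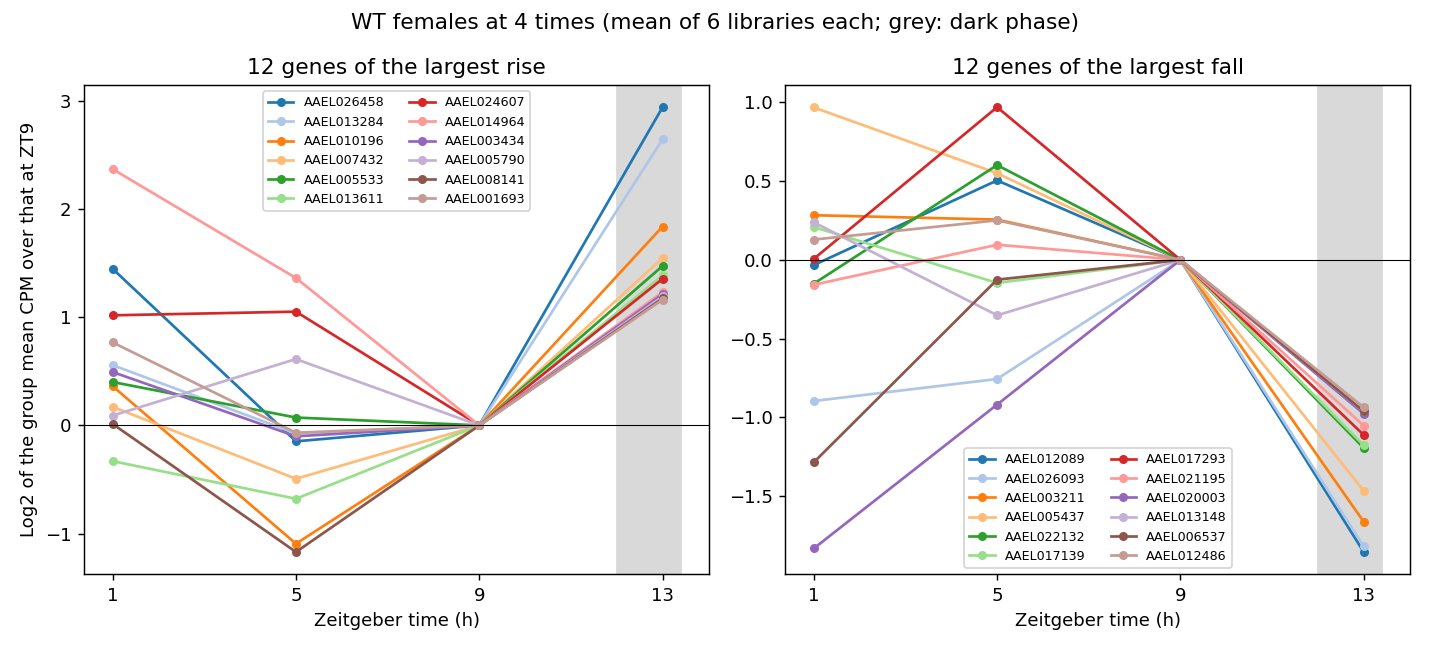
The lines give the WT mean of 6 libraries at ZT1, ZT5, ZT9 and ZT13 (x axis, hours) as log2 of its ratio to the mean at ZT9 (y axis), for the 12 genes of the largest rise (left) and of the largest fall (right), with the dark phase in grey. In the left panel 1 line of 12, AAEL014964, is higher at ZT1 than at ZT13, and in the right panel the lines of AAEL020003 and AAEL006537 are lower at ZT1 than at ZT13.

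Over all called genes, ZT13 held the highest of the 4 WT means for 381 of the 423 that rose (90.1%, against 28.3% of all genes tested) and the lowest for 216 of the 247 that fell (87.4%, against 30.3%). The calls used the same ZT13 libraries, so these shares are a description.

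The genes of phototransduction, the cascade from opsin to channel in the photoreceptor, moved in both directions. Of 6 held and tested, 1 fell and 1 rose (16.7% each, against 2.13% and 3.64% of all genes). AAEL008108 fell, with 24.5 to 39.2 CPM (median 27.9) at ZT9 and 12.7 to 18.9 CPM (median 16.3) at ZT13 (log2 fold change -0.83 ± 0.12, adjusted p = 0.000920). AAEL009991, a myosin III, which in fly photoreceptors is a motor and kinase of the light-sensing membrane, measured 69.9 to 102 CPM (median 75.7) at ZT9 and 98.6 to 115 CPM (median 107) at ZT13 (log2 fold change 0.45 ± 0.08, adjusted p = 0.00443). The median of the list was -0.06. The eye markers, 3 long wavelength sensitive opsins, summed to 7912 to 11750 CPM at ZT9 and 7049 to 8517 CPM at ZT13, nearly all of it from AAEL006259, whose log2 fold change was -0.35 ± 0.09 (adjusted p = 0.0262, and 0.0532 without ZT9 replicate 2). The part of this shift in the falls of AAEL003211, AAEL005437 and AAEL008108 was not tested.

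The markers of 2 other tissues gave overlapping sums. The 5 salivary gland genes (4 D7 proteins and prosialokinin) summed to 433 to 528 CPM at ZT9 and 407 to 527 CPM at ZT13, and the 5 nervous tissue genes to 180 to 305 CPM and 175 to 194 CPM. Most of the nervous tissue sum came from 1 gene, AAEL002055, with 162 to 276 CPM at ZT9 and 154 to 173 CPM at ZT13. None of these 10 was called, and none was at 0 in all libraries.

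The remaining lists had few calls or none, at shares of 5.88% to 9.09% where 1 member was called, close to the 5.77% of all genes. Of 17 cuticle proteins tested of 23 held, 1 fell (AAEL008764, log2 fold change -0.77 ± 0.21, adjusted p = 0.0441) and the median was -0.26, lowest of the 19 lists. Without ZT9 replicate 2, 3 of the 23 cuticle genes held fell, against 1.8% of all genes lower in that fit, and the median was -0.29. In immunity, 1 of 13 genes rose, AAEL010171, a peptidoglycan recognition protein of the long kind, which binds bacterial cell wall, from 19.4 to 31.2 CPM at ZT9 to 27.5 to 33.9 CPM at ZT13 (log2 fold change 0.43 ± 0.11, adjusted p = 0.0255). One of 11 genes of hormone activity rose, AAEL004547, with separate groups of 77.1 to 92.0 CPM and 94.8 to 122 CPM (log2 fold change 0.37 ± 0.07, adjusted p = 0.00462). AAEL001005 was the 1 of 16 genes of unfolded protein binding to be called (log2 fold change 0.15 ± 0.04, adjusted p = 0.0377). The calls of AAEL008764, AAEL010171 and AAEL001005 were each lost in 8 of the 12 fits that left out 1 library. None was called among 49 genes of DNA replication, 57 of DNA repair, 12 of the proteasome, 15 of odorant binding and 7 of neuropeptide signalling, whose medians lay between -0.14 and 0.01.

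Whether the same evening change took place in the KO was tested as the difference between the 2 changes, over 22 libraries and without the library that carries a label of each genotype. Cyc, the targeted gene, measured 25.4 to 33.5 CPM in KO and 27.5 to 33.4 CPM in WT at ZT9, where the genotypes overlapped and its total count does not check the labels. At ZT13 it measured 28.1 to 34.5 CPM in KO and 36.0 to 45.2 CPM in WT, without overlap. Of 12023 genes tested, 6 differed (0.0499%), 3 with the WT change above that of KO (0.025%) and 3 with it below (0.025%), and all 6 were among the 670 called in WT. In KO alone, 137 of 11654 genes were called (1.18%), and 97 of them were called in the same direction in WT, which is 70.8% of the KO calls and 14.5% of the WT calls. No gene was called in opposite directions. The KO fit had 5 libraries at ZT13. Of these, replicate 6 had 10670669 reads counted on genes, and the others had 25548540 to 29091190. The smaller count of genes called in KO is not by itself a difference between genotypes. Of the 670 WT calls, 602 had a KO fold change of the same sign (89.9%), but the share over all genes tested was not counted. Genes called higher in WT had a median log2 fold change of 0.374 in WT and 0.152 in KO, and those called lower -0.34 and -0.19. These genes were picked by their WT change, which favours larger values in WT.

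AAEL012089 and AAEL003211 were the falls of which KO showed less. AAEL012089 measured 29.7 to 41.5 CPM in KO at ZT9 and 17.6 to 29.5 CPM in KO at ZT13, a log2 fold change of -0.56 against -1.85 in WT, and the difference was -1.26 ± 0.17 (adjusted p = 0.00293). The beta-carotene dioxygenase AAEL003211 measured 38.0 to 60.7 CPM and 29.7 to 49.9 CPM in KO at these times, and the difference was -1.26 ± 0.21 (adjusted p = 0.0163). In both genes the genotypes overlapped at ZT9 and were apart at ZT13. AAEL012486, without an annotation, was higher in KO at both times (37.0 to 59.5 and 50.1 to 57.9 CPM) than in WT (15.9 to 24.6 and 8.68 to 15.3 CPM), with a difference of the changes of -1.11 ± 0.20 (adjusted p = 0.0237).

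The 3 others rose in WT. AAEL012219, a cysteine-type deubiquitinase by its annotation, an enzyme that removes ubiquitin from proteins, measured 34.3 to 40.7 CPM in WT at ZT9 and 67.7 to 73.5 CPM at ZT13 (log2 fold change 0.91 ± 0.05, adjusted p = 1.05e-07). It also rose in KO, from 34.8 to 37.2 CPM to 52.3 to 54.9 CPM (log2 fold change 0.57), and the difference was 0.36 ± 0.06 (adjusted p = 0.0163). The 4 groups of this gene were tight, and every KO library at ZT13 lay between the WT libraries of the 2 times.

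AAEL011967, of the perinuclear cytoplasm, measured 42.2 to 45.0 CPM in WT at ZT9 and 62.4 to 72.3 CPM at ZT13, and 68.0 to 98.1 and 77.8 to 96.6 CPM in KO (difference 0.59 ± 0.11, adjusted p = 0.0395). AAEL011319, without an annotation, measured 187 to 280 CPM in WT at ZT9 and 296 to 343 CPM at ZT13, and 264 to 359 and 287 to 344 CPM in KO (difference 0.62 ± 0.10, adjusted p = 0.0163). The 280 CPM was in replicate 2, the library with both labels, and the other WT ZT9 libraries of AAEL011319 measured 187 to 225 CPM. In both genes, the KO groups overlapped each other and the mean of WT at ZT9 was the lowest of the 4. The library with both labels measured 22.9 CPM for AAEL012486 (5 other KO ZT13 libraries 50.1 to 57.9) and 38.5 CPM for AAEL012089 (17.6 to 29.5). Its values for AAEL011967 and AAEL012219 also lay below those of KO at ZT13. For AAEL003211 its 34.9 CPM was within the ranges of both labels, and for AAEL011319 it stood apart from WT ZT9 as given. Which label is right was not tested. Among 27 alternative fits AAEL012089 was called in all 27, AAEL003211 in 24, AAEL012486 in 19, AAEL011319 and AAEL012219 in 17 each and AAEL011967 in 8. With WT ZT13 replicate 1 or replicate 4 left out 1 of the 6 genes was called, and 2 were called with the library of both labels kept under each.

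**Figure D5:**
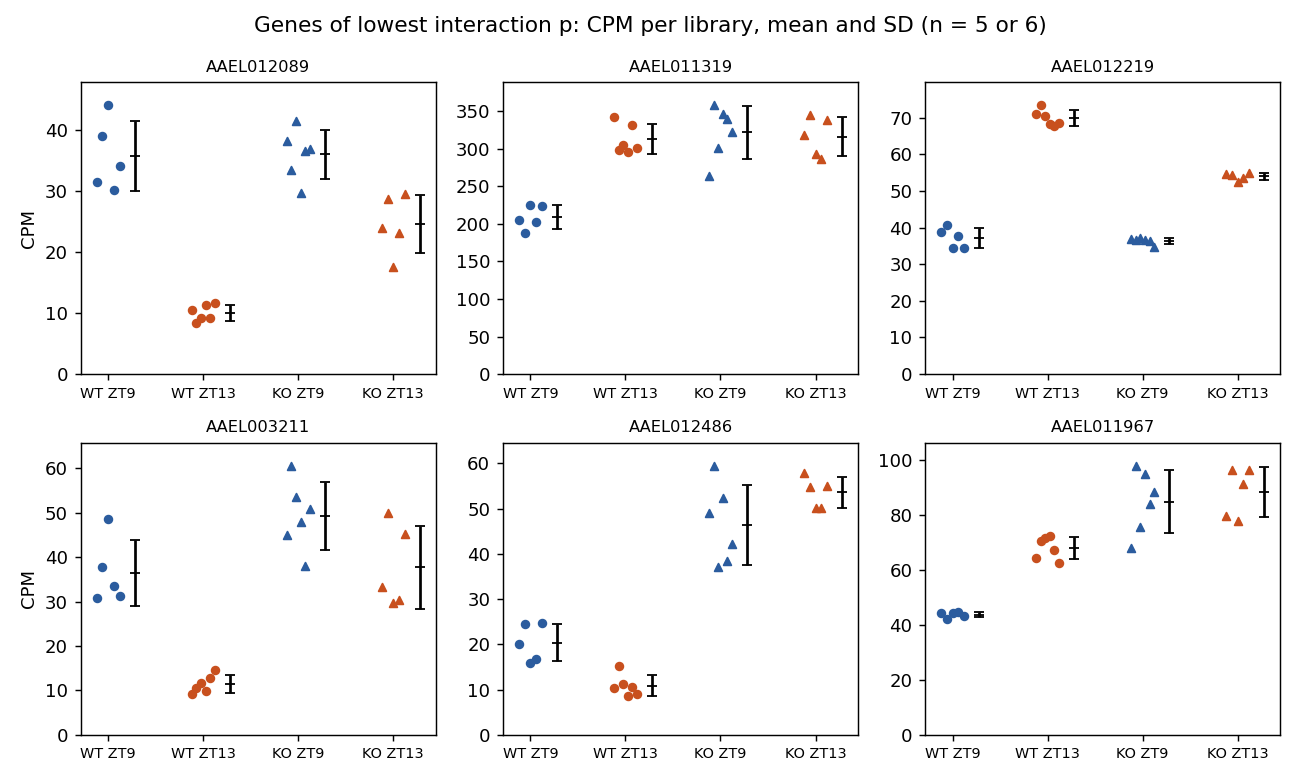
Each panel is 1 of the 6 genes whose evening change differed between genotypes, with CPM per library on the y axis for WT (circles) and KO (triangles) at ZT9 (blue) and ZT13 (orange), and the mean and SD beside them, without the library that carries 2 labels. AAEL012089 falls to 8.39 to 11.6 CPM in WT and to 17.6 to 29.5 CPM in KO, and AAEL012219 rises to 67.7 to 73.5 CPM in WT and to 52.3 to 54.9 CPM in KO.

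None of the 10 circadian rhythm genes and no member of the other 18 lists was among the 6. The circadian list holds 10 of the 11 genes of its term, and clock genes outside the term are not in it. A clock gene that is not on the list could therefore be among the 6. For AAEL008141 the change was 1.18 in WT and 0.77 in KO on the log2 scale (65.9 and 113 CPM on average in KO at ZT9 and ZT13). The difference of 0.45 ± 0.12 did not pass the test (adjusted p = 0.303), and its rise was also called in the KO fit (adjusted p = 0.000758). It was the 1 circadian gene of 10 to be called in KO (against 0.772% of all genes higher). The median of the list was 0.09 in KO beside 0.25 in WT. For Cyc the difference was 0.27 ± 0.10 (adjusted p = 0.542). The transient receptor potential channel AAEL005437 came close, with a difference of -1.11 ± 0.22 (adjusted p = 0.0634). Of the ribosome biogenesis genes, 8 of 39 fell in KO (against 0.403% of all genes) and none rose, 7 of the 8 being among the 13 called in WT, with a median of -0.14 beside -0.11 in WT. Of the serine endopeptidases 2 of 58 rose in KO (against 0.772% of all genes), both also called in WT, with a median of 0.04 beside 0.18. A p that misses the threshold does not show that the changes were alike in the genotypes.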

How the data were processed

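The authors trimmed the paired-end reads (Trim Galore 0.6.6), aligned them to VectorBase's AaegL5_2 assembly (HISAT2 2.2.1) and ran HTSeq 0.11.3 for the number per gene, and deposited whole-number counts without normalization. No source used here gives HTSeq's strand setting, so overlapping genes and near-identical copies are uncertain. The 5 summary lines that name no gene were left out, and genes took 21.0% to 30.2% of a library's total. With R 4.3.3 and edgeR 4.0.16, ZT13 was tested against ZT9 in WT (TMM factors, filterByExpr, quasi-likelihood F test, Benjamini-Hochberg adjustment, threshold 0.05), and the difference from KO as an interaction. The SE is the absolute log2 fold change over the square root of F. PC1 was taken on log2 CPM (prior count 2). Alternatives included DESeq2 1.42.0, other scalings, libraries left out and covariates.

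The libraries, gene lists and tests were chosen with earlier results of these data known. Of 19804 identifiers 0 matched the reference table used here, so annotations are those of the study's tables, and no coordinates or sequences are given. The 19 lists are partial: they hold, for example, 10 of 11 circadian, 40 of 86 ribosome biogenesis and 58 of 348 serine endopeptidase genes of the terms. Named genes are all circadian members, the 12 largest rises and falls under the conditions given, up to 4 called members of each other list whose mean log2 CPM reached 1, and the 6 of lowest interaction p. AAEL002228, AAEL008160, AAEL000028, AAEL002360 and AAEL006259 were named after their values were seen. The labels do not say whether pools came from separate cohorts, so p-values measure the spread between pools. Same-numbered libraries did not deviate together (correlations -0.074 to 0.012). The tests were checked on simulated counts with 200 changed genes. The WT test recovered 178 at 2-fold and 134 at 1.5-fold, with 12 and 10 false calls. The interaction test recovered 151 at 2-fold, with 11 false calls. Smaller changes were not simulated, and 513 of the 670 WT calls were below 1.5-fold.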

Additional observations from a re-analysis of the deposited data

Results flagged for a closer look

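Of 124 groups of 6 checked (both times for 61 named genes, and PC1), 13 held a library far from the other 5, where chance gives about 1 in 20. ZT9 replicate 4 gave 6 of them: AAEL005255 at 258 CPM (others 196 to 212), AAEL011371 at 139 CPM (97.8 to 110), AAEL018126 at 250 CPM (321 to 362), AAEL008108 at 39.2 CPM (24.5 to 28.2), AAEL009991 at 102 CPM (69.9 to 77.3) and AAEL000188 at 4.66 CPM (2.63 to 3.25). Of these 6 genes 3 belong to the circadian list, all 10 members of which were among the 61 by rule. The other lists entered with up to 4 called members each, and 2 of the 6 genes belong to phototransduction. ZT9 replicate 3 stood apart on PC1, at -25.5 against -6.27 to 2.76, and for AAEL026093, at 11.4 CPM (1.79 to 3.25). ZT9 replicate 2, the library with 2 labels, stood apart for AAEL022132, at 6.69 CPM (1.81 to 2.71), and ZT9 replicate 5 for AAEL013284, at 5.14 CPM (1.08 to 2.46). At ZT13 the libraries that stood apart were replicate 6 for AAEL005238, at 169 CPM (185 to 194), replicate 2 for AAEL011203, at 6.04 CPM (4.40 to 5.01), and replicate 4 for AAEL020382, at 188 CPM (119 to 132).

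The evening change differed between WT and KO, by the interaction test, for 6 of the 61 named genes, which were named for their low interaction p. On the log2 scale, WT minus KO, the differences were -1.26 for AAEL012089, -1.26 for AAEL003211, -1.11 for AAEL012486, 0.62 for AAEL011319, 0.355 for AAEL012219 and 0.591 for AAEL011967.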

How the results depend on the processing

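The number of genes called was within 1.5 times of 670 under DESeq2's Wald test (999), other scalings, no filter on low counts, the covariate of not unique alignments, thinning to 15233447 counts (628) and 1 fit of 24 WT libraries. Leaving out 1 library gave 455 to 1012 genes, 318 to 644 higher, 137 to 368 lower (160 without ZT9 replicate 6, and 154, 137 and 155 without ZT13 replicate 1, 5 and 6), 36 to 58 past 2-fold, 4 to 7 circadian, 4 to 6 fatty acid, 9 to 19 ribosome biogenesis and 10 to 14 serine endopeptidase genes. The genes called lower were 376 with DESeq2, 465 with library totals and 395 with 24 libraries, and those past 2-fold 70 with DESeq2 and 74 with 24 libraries. With the replicate block, 460 genes were called and 142 of them lower, and ribosome biogenesis kept 8 calls. No same-numbered pair correlated over 0.1, and no library correlated best with its own number. No pairing by number was seen, though so few pairs cannot show that there is none. With the not unique share as a covariate, 4 fatty acid genes were called. Chosen after seeing the data, ZT9 replicates 2 and 3 left out gave 439 genes, 281 higher and 158 lower, with 3 circadian, 4 fatty acid, 8 ribosome biogenesis and 8 serine endopeptidase genes, and replicates 2 and 4 left out gave 1015, 663 higher. The difference between genotypes gave 32 genes with DESeq2, 2 with the replicate block within genotype, and 1 to 14 with 1 library left out, the lowest without WT ZT13 replicate 1 or 4, 2 without WT ZT13 replicate 6, 3 without KO ZT9 replicate 2, and the highest without WT ZT9 replicate 4. PC1 gave differences between group means from 8.98 to 24.5, and 15.8 without ZT9 replicate 2, each with an exact permutation p of 0.00216. The cause of these shifts was not tested.

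AAEL018126 and AAEL019753, both uncalled with log2 fold changes of -0.00039 and 0.0098, changed sign: AAEL018126 to 0.00028 with DESeq2 and 0.00028 with its size factors, 0.0082 with the block, 0.011 with thinning, 0.0097 without ZT9 replicates 2 and 3 and -0.062 to 0.037 with 1 library left out, and AAEL019753 to -0.041 with library totals, -0.00051 with upper-quartile factors, -0.022 without ZT9 replicates 2 and 4 and -0.015 to 0.028 with 1 library left out. Depth, lowest at ZT13, limits genes at low level.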

Other observations

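Single libraries held genes far above the rest. Among the 12 libraries, ZT9 replicate 3 had 17 genes whose CPM was at least 4-fold above the next highest library, ZT9 replicate 2 had 7, ZT9 replicate 4 had 3, and each other library had 1 or 0. For AAEL001951 replicate 3 measured 258 CPM and the next library 47.9 CPM, for AAEL001319 108 and 12.1 CPM, and for AAEL025608 64.8 and 4.47 CPM. Of 24 genes with a fold change past 4-fold in either direction, 7 were called and 17 were not. Of these 17, 14 were lower at ZT13, and 9 of the 14 had their highest value in ZT9 replicate 3. In ZT9 replicate 2, Cecropin-B type 2 (AAEL029041), an antimicrobial peptide, measured 68.0 CPM and the next of the 12 libraries 9.05 CPM, within the range of 0.695 to 325 CPM over the 23 other WT libraries of all 4 times and of 0.515 to 68.7 CPM over the 5 other KO libraries at ZT13. These genes were chosen after their values were seen.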
